A study of Mus musculus with 12 samples.

Results

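The genes described here are 9 writers, readers and erasers of DNA methylation, Dnmt1, Dnmt3a, Dnmt3b, Uhrf1, Mbd2, Tet1, Tet2, Tet3 and Tdg, on an Affymetrix Mouse Genome 430 array that names 18193 genes by a probe set of their own. A member's values were taken from every probe set annotated to that gene alone, whatever its level. This gave 21 probe sets for 8 of the 9 genes. Of these, 15 probe sets, covering 6 genes, had a mean log2 signal at or above the 40th percentile of the array (log2 signal 5.60, or a signal of 48.6) and were tested, and 6 lay below it. Tdg, the thymine DNA glycosylase that removes oxidised methylcytosine, has 3 probe sets that are all shared with its pseudogenes, so no value is given for it.

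The mice were C57BL/6J offspring whose dams drank water without or with 100 nM CdCl2, called low dose cadmium (LDC), from 1 week before mating, and the offspring kept the same water after weaning. Liver RNA taken at 30 weeks of age was measured on 12 arrays, 3 each of control female, LDC female, control male and LDC male mice, which the labels call biological replicates. No source used here says which mice shared a litter or a cage. The tests therefore treat the mice as independent, and cadmium before birth cannot be told apart from cadmium after weaning. The study asked what early cadmium exposure does to the metabolism of adult mice, with body fat, blood lipids and gut bacteria among its measures. The liver arrays of both sexes were a part of it. The genes below are the enzymes and binding proteins through which a DNA methylation pattern is laid down, copied, read and removed.

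Methyl groups are added to the cytosine of CpG dinucleotides by the DNA methyltransferases. Dnmt3a and Dnmt3b write new marks, while Dnmt1, brought to newly copied DNA by Uhrf1, copies existing marks after replication. Tet enzymes oxidise methylcytosine, and base excision repair then replaces the oxidised base, whereas Mbd2 binds methylated CpG and recruits the NuRD repressor complex.

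The arrays matched their sex labels. Xist, the RNA of the inactive X chromosome, had signals of 16258 to 18731 in the 6 female arrays and 72.3 to 134 in the 6 male arrays, and Eif2s3y, on the Y chromosome, had 1.02 to 9.73 in females and 2234 to 2972 in males. Female mice lack Uty, so its female signals of 19.1 to 67.2 show how high a probe set can read without its gene, and no detection calls were used. All 7 hepatocyte markers with a probe set of their own passed the filter, and their summed signal was 220291 to 282431 over the 12 arrays. Signals below are the deposited linear intensities, and differences between groups are log2 differences of them from a limma fit over all 12 arrays.

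Dnmt1 and Tet2 were lower in control males than in control females, and no member passed the test for LDC in either sex. Among control mice, 2 of the 15 member probe sets were called at an adjusted p under 0.05 in limma, both lower in males, while 7.73% of all 27022 tested probe sets were called in either direction and 4.14% lower. At an unadjusted p under 0.05 there were 4 (21.5% of all). In 8 of the 15 the 3 control males lay below the 3 control females, against 13.0% of all tested probe sets. The median log2 difference of males against females was -0.75 over the 15 probe sets and -0.02 over all tested probe sets. The 12 lower and 3 higher member probe sets include several of 1 gene, so they are not independent.

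Dnmt1, the maintenance methyltransferase, was read by 3 probe sets. The one with the highest mean (1422946_a_at) gave 692, 765 and 996 in control females and 603, 722 and 486 in LDC females. It gave 368, 430 and 481 in control males and 433, 342 and 421 in LDC males. Every one of the 6 male arrays lay below every one of the 6 female arrays, by a narrow gap between control male 3 and LDC female 3. The control mean was lower in males, falling from 818 ± 159 (SD, n = 3) in females to 426 ± 56.3 (SD, n = 3) in males, a log2 difference of -0.93 (SE 0.20, 95% interval -1.35 to -0.51, limma adjusted p = 0.00975). Ordered by mean, the groups ran control female, LDC female at 604 ± 118, control male and LDC male at 399 ± 49.4. The control and LDC ranges overlapped within each sex.

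The other Dnmt1 probe sets varied most among males. 1435122_x_at averaged 332 ± 54.1 in control and 218 ± 10.3 in LDC females, 199 ± 50.8 in control males and 97.1 ± 66.9 in LDC males, and LDC male 3 read only 20.02 against 131 and 141 in the other LDC males. The dimmest, 1447877_x_at, averaged 56.9 ± 62.8 in control males against 123 ± 47.2 in control females, with 5 of 12 arrays under the filter value. Between the sexes of control mice neither was called, with log2 differences of -0.75 (adjusted p = 0.477) and -1.92 (adjusted p = 0.286). Across the 12 arrays, which share their groups, the 3 probe sets correlated with Pearson r of 0.51 to 0.63.

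RefSeq places several transcription starts of Dnmt1 on the minus strand of chromosome 9 (GRCm38.p6), the outer ones 7265 bases apart, and the array does not show which start made the RNA. The windows around the first and the last start, each from 250 bases before to 50 after the start, are shown because they differ most in the CpG sites that these enzymes act on, which stand in capitals.
Dnmt1, first start, chr9:20959839-20960138: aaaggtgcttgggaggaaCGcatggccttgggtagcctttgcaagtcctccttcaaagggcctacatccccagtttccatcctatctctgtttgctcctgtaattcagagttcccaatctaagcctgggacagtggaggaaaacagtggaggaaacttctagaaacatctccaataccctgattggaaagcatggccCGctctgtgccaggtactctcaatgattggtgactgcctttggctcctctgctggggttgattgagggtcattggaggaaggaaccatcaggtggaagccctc
Dnmt1, last start, chr9:20952574-20952873: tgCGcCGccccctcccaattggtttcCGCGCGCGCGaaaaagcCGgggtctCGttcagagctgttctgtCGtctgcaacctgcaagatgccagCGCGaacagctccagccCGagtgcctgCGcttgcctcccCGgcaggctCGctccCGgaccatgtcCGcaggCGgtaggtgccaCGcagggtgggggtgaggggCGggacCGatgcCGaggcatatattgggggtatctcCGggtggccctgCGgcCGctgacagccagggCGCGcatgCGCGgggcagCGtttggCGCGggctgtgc
The window of the first start holds 2 CpG dinucleotides and that of the last start 33, while the median of all 32851 windows of this length was 7. Fewer CpG than in the first window were found in 14.1% of all windows, and fewer than in the last in 91.4%. Motifs were searched on both strands. The window of the last start holds 2 matches to the E2F-type letters TTTCCCGC, TTTCGCGC, TTTGCCGC or TTTGGCGC, beginning at bases 32 and 284, which are found in 2.27% of all windows, and 2 GC boxes (GGGCGG), found in 35.7%.

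Tet2, an oxidase of methylcytosine that starts its removal, was read by 2 probe sets. The main one (1455300_at) gave 755, 809 and 755 in control females and 753, 764 and 785 in LDC females. It gave 496, 464 and 495 in control males and 553, 473 and 691 in LDC males. Female groups were nearly level, all 6 males lay below all 6 females, and LDC males were spread most widely. The mean was 773 ± 31.3 in control females and 485 ± 18.3 in control males (SD, n = 3 each), a log2 difference of -0.67 (SE 0.15, limma adjusted p = 0.0151). Without control male 2 this difference was -0.64 with an adjusted p of 0.0538, so leaving out that array ended the call.

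The second Tet2 probe set (1438781_at) gave 601, 440 and 754 in control females, 471, 679 and 533 in LDC females, 339, 268 and 432 in control males and 366, 308 and 395 in LDC males. Here too no male array reached the lowest female array, with 432 against 440 the closest pair. Its log2 difference between control males and females was -0.78 (SE 0.24, adjusted p = 0.0590), which missed the threshold. The 2 Tet2 probe sets followed each other over the 12 arrays (Pearson r = 0.80).

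The Tet2 window is shown beside those of Dnmt1 for the density of its CpG sites, again in capitals.
Tet2, chr3:133544341-133544640, minus strand: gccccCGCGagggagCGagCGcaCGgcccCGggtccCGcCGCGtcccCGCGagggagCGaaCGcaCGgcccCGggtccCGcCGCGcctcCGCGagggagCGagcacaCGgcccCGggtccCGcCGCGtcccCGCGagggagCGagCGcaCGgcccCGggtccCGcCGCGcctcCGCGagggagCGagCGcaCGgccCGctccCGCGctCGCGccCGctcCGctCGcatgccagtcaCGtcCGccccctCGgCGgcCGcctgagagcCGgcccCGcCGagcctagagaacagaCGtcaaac
It holds 57 CpG dinucleotides, more than 99.85% of all windows, and 1 GC box. Mbd2 was left out of the window search. For the other 7 of the 8 members on the array, 12 windows were examined, with 2 to 57 CpG. A GC box lay in 10 of these 12 windows, against 35.7% of all windows. An E2F-type match lay in 2 (the last start of Dnmt1 and 1 of Uhrf1), against 2.27% of all. A STAT-type match (TTCNNNGAA) lay in 0, against 8.30%. The windows of all genes were not matched for CpG content, and 2 of the 12, both of Dnmt3a, overlap each other.

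**Figure D1:**
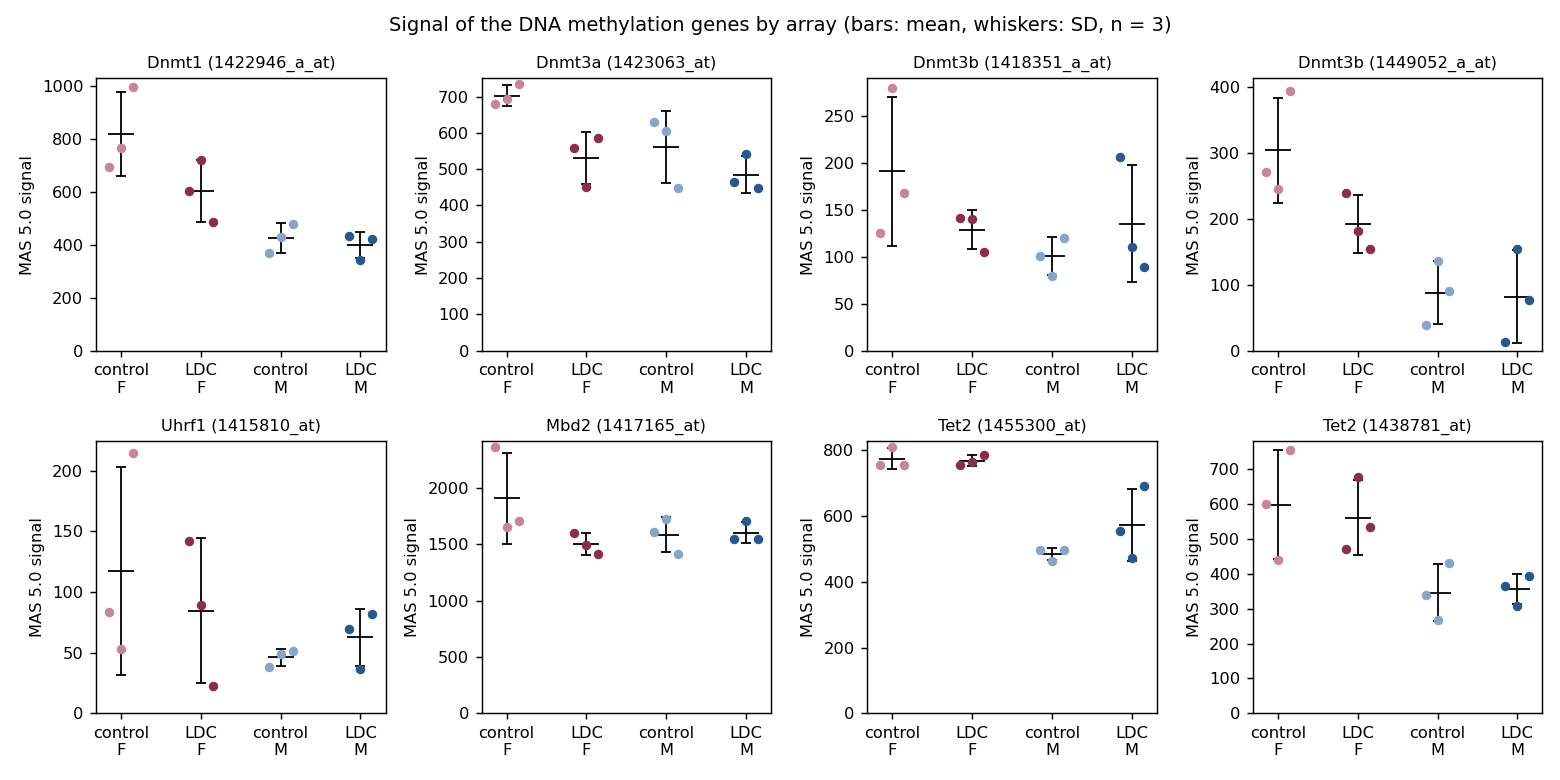
Signal intensity (linear axis from 0) of 8 member probe sets in control and LDC females (F) and males (M). Each point is 1 array, horizontal bars are group means and whiskers are SD (n = 3). In the Dnmt1 panel and both Tet2 panels the points of all 6 males lie below those of all 6 females, while the Uhrf1 points of the sexes overlap.

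The pattern of all 6 male arrays below all 6 female arrays was shown by 3 member probe sets, those of Dnmt1 and Tet2 just described, and by 3.46% of all tested probe sets. The reverse pattern was shown by 0 members and 3.21% of all tested probe sets. Within LDC mice, 0 of the 15 member probe sets were called between males and females in limma, against 6.29% of all, although 5 had an unadjusted p under 0.05 (18.9% of all) and all 5 were lower in males. The groups did not overlap for 7 of the 15 (5 lower and 2 higher in males), against 26.9% of all tested probe sets. The Dnmt1 main probe set had a log2 difference of -0.59 (SE 0.20, adjusted p = 0.103) and the Tet2 main probe set -0.44 (SE 0.15, adjusted p = 0.114). Whether the difference between the sexes was itself different under LDC is the interaction, which was 0.34 (SE 0.28, adjusted p = 0.721) for Dnmt1 and 0.23 (SE 0.22, adjusted p = 0.769) for Tet2, so no change of the sex difference passed the test.

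Averaged over control and LDC mice, a contrast added after seeing the data, 4 member probe sets were called, all lower in males, against 13.3% of all tested probe sets in either direction and 7.31% lower. Dnmt1 differed by -0.76 (SE 0.14, adjusted p = 0.00203), and the Tet2 pair by -0.56 (SE 0.11, adjusted p = 0.00301) and -0.71 (SE 0.17, adjusted p = 0.0103). The fourth was a Dnmt3b probe set.

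Dnmt3b, a writer of new methylation marks, was read by 2 probe sets that did not follow each other over the 12 arrays (Pearson r = 0.06). The probe set called over all mice (1449052_a_at) gave 272, 246 and 394 in control females and 240, 182 and 155 in LDC females. It gave 39.3, 136 and 89.9 in control males and 13.98, 155 and 77.0 in LDC males. Each control male lay below each control female, LDC male 2 reached the lowest LDC female, and control male 1 and LDC male 1 fell under the filter value. The difference over all mice was -1.85 (SE 0.49, adjusted p = 0.0212), and the call ended without control female 3 (adjusted p = 0.0507) or without LDC female 1 (adjusted p = 0.0536), and with eBayes without a trend (adjusted p = 0.0627). The other probe set (1418351_a_at), with the higher mean, averaged 191 ± 79.7 in control females, 129 ± 20.5 in LDC females, 101 ± 20.2 in control males and 135 ± 62.3 in LDC males. Its difference over all mice was -0.44 (SE 0.29, adjusted p = 0.362). In control mice it was -0.86 (SE 0.40, adjusted p = 0.233), with each male below each female. Both probe sets thus had lower means in males over all mice, and 1 of the 2 was called.

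LDC in females was tested against the same control females that served in the comparison of control males with females, so the control female arrays enter both. None of the 15 member probe sets was called in limma, where 0.122% of all tested probe sets were, and the smallest adjusted p was 0.502. An unadjusted p under 0.05 was found for 3 of them, all lower in LDC, and for 9.01% of all tested probe sets, 4.33% lower. The methods' t-test also called 0 after adjustment. Lower values in LDC females were seen in 12 of the 15, or 80.0%, against 49.3% of all tested probe sets, and the median log2 difference was -0.41 against 0.01 over all. In 5 of the 15 the 3 LDC females lay below the 3 control females, as in 6.71% of all tested probe sets. Because the members include up to 5 probe sets of 1 gene, these counts are a description and not a test.

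The 3 probe sets were the main ones of Dnmt1, Dnmt3a and Mbd2. Dnmt1, with the arrays given above, had a log2 difference of -0.44 (SE 0.20, 95% interval -0.86 to -0.02, adjusted p = 0.533). Without control female 3, the array with the highest signal of this Dnmt1 probe set, it was -0.29. Dnmt3a, the other writer of new marks and one that non-dividing cells also express, gave 679, 693 and 735 in control females and 558, 451 and 586 in LDC females (1423063_at). These 2 groups did not overlap, and the log2 difference was -0.41 (SE 0.17, 95% interval -0.78 to -0.04, adjusted p = 0.502). The remaining 4 Dnmt3a probe sets had differences of -0.52, -0.33, 0.06 and 0.11 in females, with adjusted p of at least 0.721, so they did not point one way. Mbd2, the methyl-CpG binding subunit of a NuRD complex, gave 2364, 1648 and 1700 in control females and 1601, 1489 and 1414 in LDC females (1417165_at). Control female 1 stood well above the rest, and the difference was -0.32 (SE 0.14, 95% interval -0.63 to -0.02, adjusted p = 0.512). Without that array it was -0.16 (adjusted p = 0.870), whereas the second Mbd2 probe set averaged 552 ± 96.5 and 598 ± 66.5, a difference of 0.12 (adjusted p = 0.884).

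Tet2 barely differed between the female groups. Its main probe set averaged 773 ± 31.3 in control females and 768 ± 16.5 in LDC females. At 3 arrays a group, the 95% interval of the log2 difference, not adjusted for the number of probe sets, was -0.34 to 0.32. The second probe set had an interval of -0.58 to 0.43.

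LDC in males likewise gave 0 calls among the 15 member probe sets in limma and in the methods' t-test, against 0.278% of all tested probe sets. With 7 higher and 8 lower, their median log2 difference was -0.01, and over all tested probe sets it was 0.00. The groups did not overlap for 2, 1 in each direction, against 16.5% of all tested probe sets. The single unadjusted p under 0.05 (10.2% of all tested probe sets) belonged to the Dnmt1 probe set 1435122_x_at, with control males at 254, 190 and 154 and LDC males at 131, 141 and 20.02. Its difference of -1.44 (SE 0.55, adjusted p = 0.386) drew on LDC male 3, and ran to -0.52 at the smallest among the alternatives, whereas the main Dnmt1 probe set differed by -0.10 (95% interval -0.52 to 0.33, adjusted p = 0.920). Tet2 differed by 0.22 (95% interval -0.11 to 0.55, adjusted p = 0.676) and Mbd2 by 0.02 (95% interval -0.28 to 0.32). Dnmt3a gave 630, 606 and 448 in control males and 465, 542 and 448 in LDC males, which overlap, and differed by -0.20 (95% interval -0.57 to 0.17, adjusted p = 0.756).

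The difference between the LDC effects in males and females was tested directly. None of the 15 probe sets was called or had an unadjusted p under 0.05, against 0.178% and 10.3% of all tested probe sets, and the smallest adjusted p was 0.582. An effect of LDC that differs between the sexes was therefore not detected for these genes, with intervals of -0.25 to 0.94 for Dnmt1 and -0.23 to 0.69 for Tet2.

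**Figure D2:**
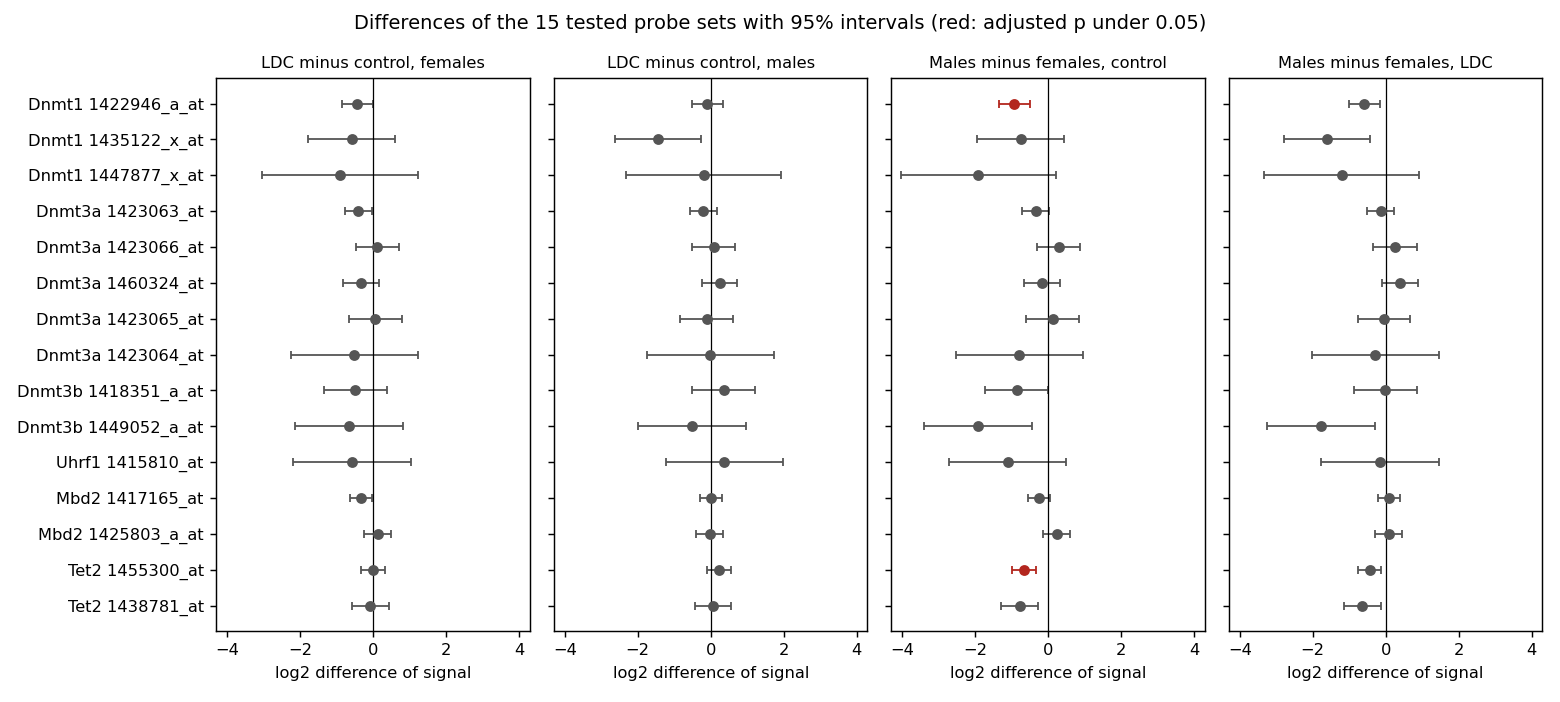
Log2 differences (x axis) of the 15 tested member probe sets (rows) for LDC minus control in females and in males, and for males minus females in control and in LDC mice; points are limma estimates and lines 95% intervals, red where the adjusted p is under 0.05. The 2 red points are Dnmt1 (-0.93) and Tet2 (-0.67) in control mice, and the intervals of the dim probe sets of Dnmt1, Dnmt3a, Dnmt3b and Uhrf1 are the widest.

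Uhrf1, which brings Dnmt1 to replicated DNA, was close to the filter. Its tested probe set (1415810_at) gave 83.8, 53.1 and 215 in control females, 142, 89.6 and 22.4 in LDC females, 38.3, 48.6 and 51.3 in control males and 69.5, 36.6 and 82.2 in LDC males. Control female 3 alone stood above 200, and the other 11 arrays spanned both sexes and both waters. Its largest difference, -1.11 between control males and females, had a 95% interval of -2.72 to 0.50 (adjusted p = 0.434). The second Uhrf1 probe set lay under the filter value on 10 of 12 arrays.

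Tet1 and Tet3, the other oxidases of methylcytosine, were not shown above background. All 4 Tet1 probe sets lay below the filter, the highest of them (1419897_at) with signals of 7.22 to 107 and 6 of 12 arrays under the filter value. The only Tet3 probe set (1439324_at) had signals of 9.57 to 95.9, with 9 of 12 arrays under it. Female signals of Uty cover much of the same range, so no order of the groups was read from Tet1 or Tet3. They entered a test only in the alternatives with a lower filter or none.

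The genes whose log2 signal most resembled each member over the 12 arrays were taken among 12820 tested genes as a description. Those nearest to Dnmt1 were Arid1a, a subunit of a chromatin remodelling complex (Pearson r = 0.95), Apcs, a plasma protein made by hepatocytes (r = 0.95), and Hacl1, a peroxisomal lyase (r = 0.94). For Tet2 they were Trp53bp1, a DNA repair protein (r = 0.96), Mmp14, a membrane metalloproteinase (r = 0.96), and Cyp2g1 (r = 0.95). Dnmt3a stood nearest to Ocel1 (r = 0.93), Dnmt3b to Tsen15 (r = 0.87), Uhrf1 to Mypop (r = 0.94) and Mbd2 to Tnfaip8 (r = 0.94). The 12 points share the differences between the 4 groups, and none of these genes is another member.

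Partners of the members, taken from 6 lists (writer partners, methyl-CpG readers, NuRD subunits, demethylation and base excision repair, TET partners and methyl donor genes), held 58 tested genes of 70. LDC gave 0 calls in limma among the 58 in males, in females and in the difference between them, against 0.278%, 0.122% and 0.178% of all tested probe sets. An unadjusted p under 0.05 was found for 12 in males, 4 higher and 8 lower (10.2% of all tested probe sets), for 5 in females, 3 higher and 2 lower (9.01% of all), and for 7 in the difference (10.3% of all). The smallest adjusted p in males were those of Mbd1, another methyl-CpG binding protein, with -0.75 (adjusted p = 0.110), and Ogt, the GlcNAc transferase that partners the TET enzymes, with 0.47 (adjusted p = 0.126). In females the smallest were D2hgdh, which clears an inhibitor of the TET enzymes, with 0.61 (adjusted p = 0.428), and Mbd3, the NuRD counterpart of Mbd2, with 0.47 (adjusted p = 0.432). The median over the 58 was -0.08 in males and -0.03 in females, near the 0.00 and 0.01 of all tested probe sets.

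Between control males and females, 8 of the 58 partners were called, 4 higher and 4 lower in males, against 7.73% of all tested probe sets. Mbd1 had the smallest adjusted p of them. It averaged 1227 ± 295 in control females, 982 ± 86.3 in LDC females, 3454 ± 745 in control males and 2022 ± 62.0 in LDC males, and rose in males by 1.497 in control mice (SE 0.17, limma adjusted p = 0.000101) and 1.05 in LDC mice (adjusted p = 0.00167). Of its 5 probe sets, 1 other was also called over all mice, by 2.11. Mbd1 thus ran opposite to Dnmt1 and Tet2. Higher in control males were also Gadd45g (2.03, adjusted p = 0.0343), a stress gene linked to active demethylation, Polb, the polymerase of base excision repair (0.60, adjusted p = 0.0227), and Ahcy (0.42, adjusted p = 0.0222), which clears S-adenosylhomocysteine, the product inhibitor of methyltransferases. Lower were Zbtb4, a reader of methylated CpG (-0.80, adjusted p = 0.00751), the histone methyltransferase Ehmt2 (-0.52, adjusted p = 0.0346), the tRNA methyltransferase Trdmt1 (-0.99, adjusted p = 0.0499) and Idh2, which makes the cofactor of TET enzymes (-0.46, adjusted p = 0.0453). The calls of Mbd1 and Zbtb4 held in all 12 fits that left out 1 array and ended under the methods' t-test (adjusted p = 0.186 and 0.152). Those of Trdmt1 and Idh2 each ended in 10 of the 12, that of Ehmt2 in 5, and those of Polb, Gadd45g and Ahcy in 4 each.

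Between LDC males and LDC females, 7 of the 58 partners were called, 2 higher (Mbd1 and Ung) and 5 lower, against 6.29% of all tested probe sets. Ung, a uracil glycosylase, was higher by 1.12 (adjusted p = 0.0164). Lower were Hcfc1, a partner of Ogt (-0.78, adjusted p = 0.00800), Usp7, the deubiquitinase of Dnmt1 and Uhrf1 (-0.55, adjusted p = 0.0156), the NuRD subunits Hdac2 (-0.63, adjusted p = 0.0255) and Chd4 (-0.85, adjusted p = 0.0391), and the repair nuclease Apex1 (-0.51, adjusted p = 0.0479). Mbd1 and Hcfc1 held their calls in all 12 fits that left out 1 array, and that of Hcfc1 ended under the methods' t-test (adjusted p = 0.161). The call of Apex1 ended in 9 of the 12 fits, that of Chd4 in 5, those of Usp7 and Hdac2 in 4 each and that of Ung in 3. Calls made in control mice and not in LDC mice, or the reverse, are not shown to differ, since no interaction among the 58 was called. Over all mice 14 of the 58 were called, 5 higher and 9 lower in males, against 13.3% of all tested probe sets. Among them were the NuRD subunits Hdac1 (-0.36, adjusted p = 0.0214) and Mta2 (-0.56, adjusted p = 0.0257), whose calls ended in 3 and 4 of the 12 leave-one-out fits. Mta3, another subunit, was called through a probe set other than its main one (-0.87, adjusted p = 0.0117).

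**Figure D3:**
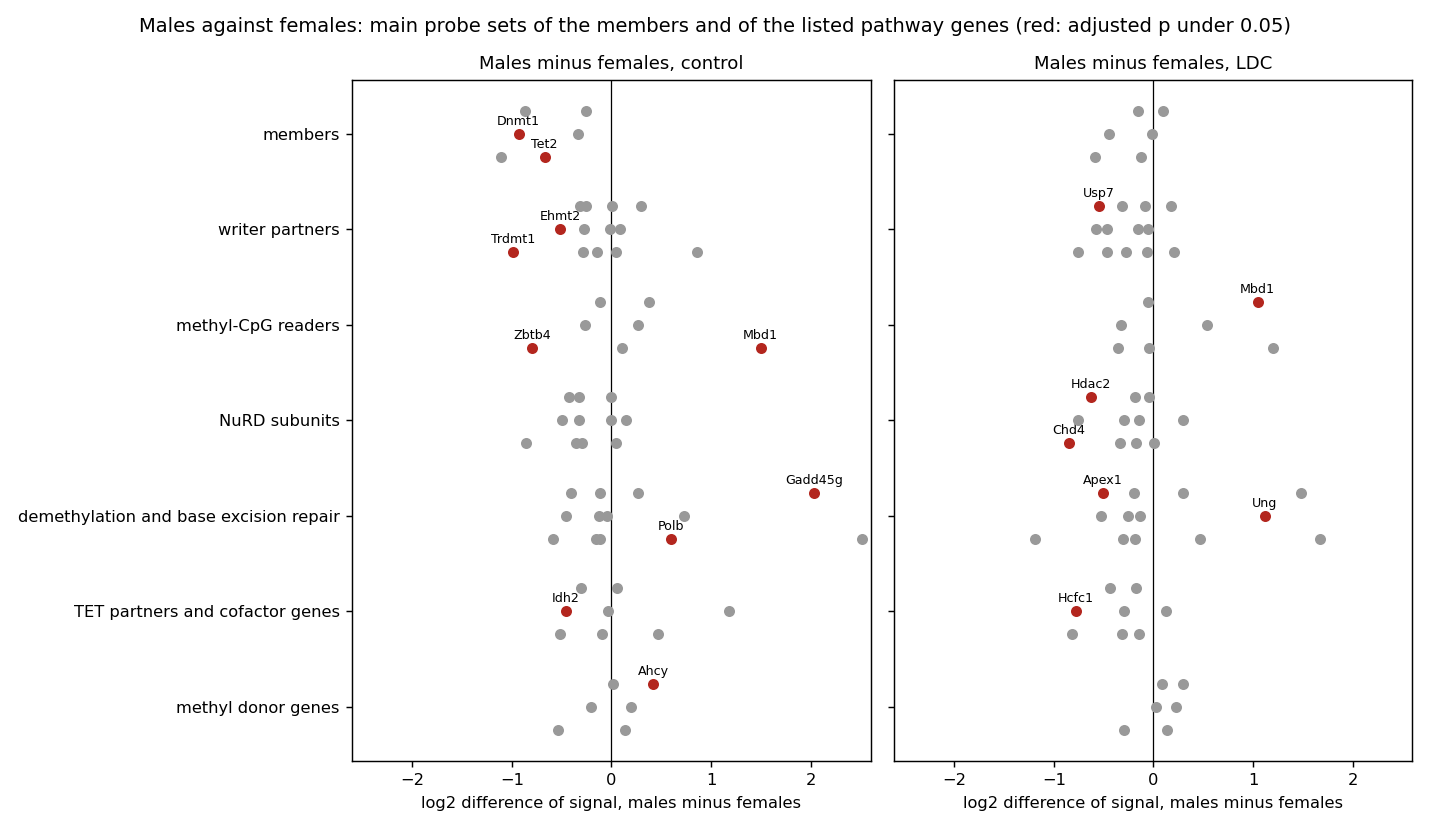
Log2 differences (x axis) of males minus females in control mice and in LDC mice for the main tested probe set of each member (top row) and of the genes of 6 partner lists (other rows); each point is 1 gene, spread vertically only for visibility, and red points with names have an adjusted p under 0.05. Dnmt1 and Tet2 stand to the left and Mbd1 to the right in control mice, and Mbd1 stands to the right in LDC mice too.

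Markers of other cells also differed between the groups, in part against the direction of Dnmt1 and Tet2. In whole liver, fewer cells of a type and less RNA per cell cannot be told apart. Summed over the 8 neutrophil markers with a probe set, 6 of them tested, female signals ran from 3454 to 6478 under control and from 695 to 1026 under LDC. Male signals ran from 1229 to 1660 under control and from 3315 to 3790 under LDC. Of the 6, 4 were called lower in LDC females and 4 lower in control males than in control females. In LDC males 1, S100a8, was called higher (1.43, limma adjusted p = 0.0178), 4 were called higher in LDC males than in LDC females, and 4 were called for the difference between the LDC effects. Of all tested probe sets, 0.122% were called for LDC in females, 0.278% in males and 0.178% for the difference between these effects. Between the sexes 7.73% were called in control mice and 6.29% in LDC mice. Summed over 11 lymphocyte markers, the control females had 5726 to 12487 and the LDC females 1124 to 2491, with 3820 to 4676 for control males against 4265 to 6477 for LDC males. The antibody genes Ighm and Jchain, with means of 5035 and 2399 in control females, made up most of that sum and were the 2 of 9 tested markers called lower in LDC females, while 1 of the 9, Cd79b, was called lower in control males. Summed over 8 macrophage and Kupffer cell markers, control females had 15858 to 40740, LDC females 6621 to 30423, control males 13140 to 13470 and LDC males 19351 to 26778. Against control females, all 8 had lower mean log2 signals in control males (median difference -1.01) and in LDC females (median difference -0.74), and all 8 had higher ones in LDC males than in control males (median difference 0.71). In limma 0 of the 8 were called, with 3 at an unadjusted p under 0.05 between control males and females (21.5% of all tested probe sets), 2 for LDC in females (9.01% of all) and 1 for LDC in males (10.2% of all). On average the 3 sums were highest in the control females. The main probe sets of all 6 tested members also averaged highest there, that of Tet2 narrowly, at 773 against 768 in LDC females. Among LDC mice the neutrophil and lymphocyte sums were instead higher in males, where Dnmt1 and Tet2 averaged lower than in females. The part of these cell markers in the member values was not tested.

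Dnmt1 and Uhrf1 are also genes of dividing cells. The 22 proliferation genes with a probe set summed to 5717, 3851 and 8565 in control females, with LDC females at 3731 to 4971, control males at 4016 to 4972 and LDC males at 3989 to 4420. Control female 3, the highest, was also the highest array for the main probe sets of Dnmt1 and Uhrf1. Control female 2 had the lowest sum of the 3 control females, 3851, and their lowest Uhrf1 signal, 53.1. Its main Dnmt1 signal of 765 was above the 692 of control female 1. The other 2 Dnmt1 probe sets were highest in control female 1, at 369 and 177. Without control female 3 the main Dnmt1 probe set differed by -0.78 between control males and females (limma adjusted p = 0.0437), still called. Of the 17 proliferation genes tested, 15 had lower and 2 higher means in control males than in control females, with a median log2 difference of -0.65. In limma 0 were called (7.73% of all tested probe sets), with 6 lower and 1 higher at an unadjusted p under 0.05 (21.5% of all). For LDC in females 16 of the 17 had lower means, with a median of -0.53, and in males 7 did, with a median of 0.18. The part of these genes in the Dnmt1 values was not tested. Among the 17, 0 were called for LDC in either sex, with 1 at an unadjusted p under 0.05 in males (10.2% of all) and 2 in females (9.01% of all), both lower there: the replication licensing factor Cdt1 (-1.16, adjusted p = 0.142) and the cyclin Ccne1 (-1.86, adjusted p = 0.255). Over all mice, the contrast added after seeing the data, 1 of the 17 was called lower in males and 1 higher. Of all tested probe sets 13.3% were called there, 7.31% lower. The lower one was Mcm6, a subunit of the replicative helicase (-0.92, limma adjusted p = 0.0397). The higher one was Rrm2, a subunit of ribonucleotide reductase (1.13, limma adjusted p = 0.00563). Leaving out each array in turn, the Mcm6 call ended in 9 of 12 fits and that of Rrm2 in 0. Ccne1 was higher in LDC males than in LDC females through a second probe set (2.88, adjusted p = 0.0163).

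The summed stellate cell and fibroblast markers were also lower in males. Their 8 genes summed to between 20810 and 32188 in control females and between 20971 and 23749 in LDC females. Control males had 14183 to 18570 and LDC males 18381 to 18737, so that by the sum all 6 males lay below all 6 females, as for Dnmt1 and Tet2. Of the 8, 2 were called lower in control males, Lrat (-0.98, limma adjusted p = 0.00175), which stores vitamin A, and Ecm1 (-0.56, adjusted p = 0.0340). Of all tested probe sets 4.14% were called lower there. Between LDC males and LDC females 0 of the 8 were called, against 6.29% of all, with 6 lower and 2 higher in males. The 2 higher ones, Des and Col1a1, averaged 281 and 93.4 in LDC males and so add little to the sum. Their part in the Dnmt1 and Tet2 values was not tested.

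**Figure D4:**
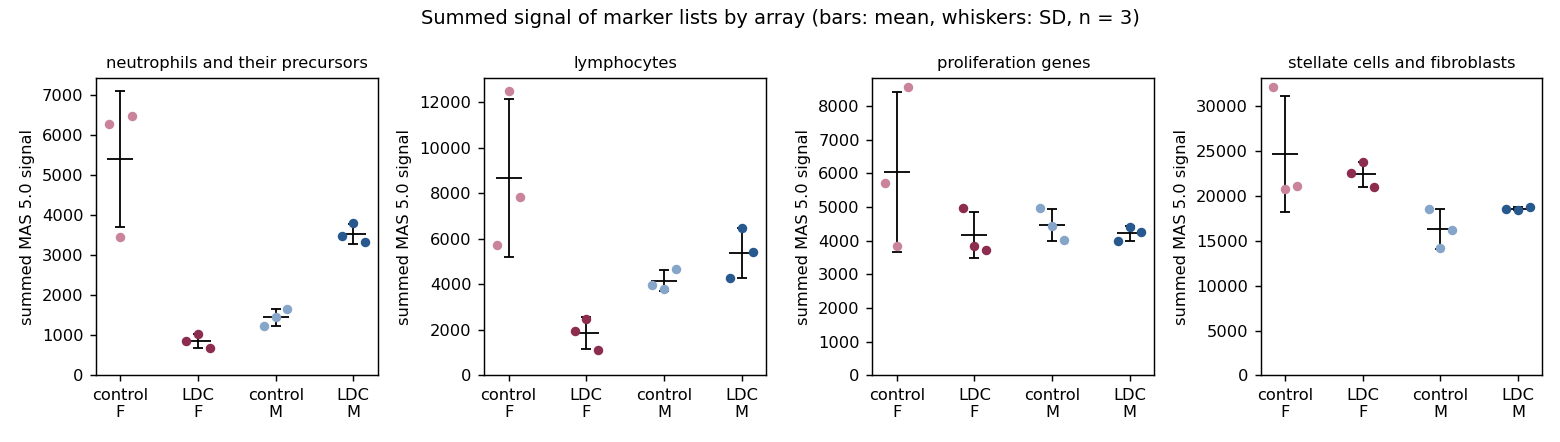
Summed signal (linear axis from 0) of 4 marker lists by array in control and LDC females (F) and males (M); points are arrays, horizontal bars means and whiskers SD (n = 3). Neutrophil and lymphocyte sums have their highest mean in control females and their lowest in LDC females, and the stellate cell sum is lower in all 6 males than in all 6 females.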

How the data were processed

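Liver RNA of 12 mice was hybridised to Affymetrix Mouse Genome 430 arrays. Each deposited value is the signal intensity of a probe set, computed by the authors with the MAS 5.0 algorithm and scaled so that each array's mean after trimming 2% at each end is 500.0. Arrays were grouped by their labels. Of 45101 probe sets, 64 controls were left out. Symbols came from the platform table (2016), updated by gene ID for 34754 probe sets. Of all probe sets 34958 name 1 gene, 932 several and 9211 none.

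Intensities were log2 transformed, and 27022 probe sets at or above the 40th percentile of the mean were tested. A mean per group was fitted with limma 3.58.1 (R 4.3.3; 8 residual degrees of freedom) with an intensity trend, and p-values were adjusted by Benjamini-Hochberg over all of them, with calls at an adjusted p under 0.05. The number of arrays limits the precision. Where a gene has several probe sets, that with the highest mean log2 signal is its main one. Partners were to be named if called in any contrast, or if among the 3 of their list with the smallest p for LDC; of the latter the text gives the 2 with the smallest p in each sex. The members and lists were chosen with earlier results of these data known. The contrast over all mice, the count of 6 males below 6 females and the promoter motifs were added after seeing the data. Alternatives were other filters, quantile and median scaling, log2(value + 32), 1 probe set per gene, eBayes without trend and fits on each contrast's own arrays. Further ones were arrayWeights, a Student's t-test on log2 signal, a replicate block and each array left out. The study's methods name no test for the arrays, so the t-test was chosen here. Promoter sequences are RefSeq's (GRCm38.p6). Python 3.11.15 and matplotlib 3.10.9 made the figures.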

Additional observations from a re-analysis of the deposited data

How the results depend on the processing

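In each of the 24 alternatives in which they were run, 0 member probe sets were called for LDC in males, for LDC in females, for the difference between them and for males against females in LDC mice. The 2 calls between control males and females became 0 under the Student's t-test (adjusted p = 0.207 for Dnmt1 and 0.0751 for Tet2). They were 1 to 3 when 1 array was left out, with 1 only without control male 2. The Dnmt1 call held in 23 of 24 alternatives and that of Tet2 in 22. The 4 calls over all mice became 2 with 1 probe set per gene, since only main probe sets then remained, and were 3 to 5 when 1 array was left out. The interaction and the contrast over all mice were not run for each contrast's own arrays or for the t-test.

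The replicate numbers did not pair the samples: deviations from the group means correlated by -0.03 to 0.06 for the 18 pairs with the same number and by -0.08 to 0.08 for the 36 others. With the replicate block, the member calls numbered 2 in control mice and 4 over all mice, as without it, and Dnmt1 had an adjusted p of 0.0173 in control mice.

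Of the 90 member differences, 19 had an unadjusted p under 0.05, and 0 of these changed sign in any alternative. Of the other 71, 27 changed sign somewhere, none of them called in any setting. Over all probe sets the number called ranged from 0 to 103 for LDC in males (75 as reported), 0 to 106 for LDC in females (33), 10 to 78 for the difference (48), 7 to 2287 in control mice (2088), 325 to 2309 in LDC mice (1701) and 2176 to 3865 over all mice (3592). Without detection calls, dim signals such as those of Tet1, Tet3 and Uhrf1 are not shown above background.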

Other observations

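Of the 7 hepatocyte markers tested, 1, the transcription factor Hnf4a, was called between control males and females, against 7.73% of all tested probe sets. Its main probe set was higher in males by 0.37 (limma adjusted p = 0.0446). Another of its 4 probe sets was also called there, higher by 0.89 (limma adjusted p = 0.00354). The only red cell marker tested, Alas2, the first enzyme of heme synthesis in red cell precursors, was higher in males by 2.88 (adjusted p = 2.52e-06) in control and 1.99 (adjusted p = 8.15e-05) in LDC mice.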
